A study of Mus musculus with 17 samples.

Results

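Mouse embryonic fibroblasts (MEFs) transformed with activated HRas and carrying a retroviral vector for USP28 were compared with the same kind of cells carrying a vector for green fluorescent protein (GFP). The members were chosen by their labels alone and are 4 of the 17 libraries of the series. They comprise 2 libraries of Ras +/+ USP28 cells and 2 of Ras +/+ cells. Both groups are C57bl/6 MEFs of stage E13.5 with the genotype +/+ at Usp28, and both were immortalized with a short hairpin RNA against p19ARF before activated HRas and the second vector (pWZL-USP28 or pWZL-GFP) were added. Transformed MEFs that were Ras +/- or Ras -/- at Usp28, 2 libraries each and all with the GFP vector, serve as further reference levels. Vectors were delivered to cultured cells, and neither the number of embryos behind a group nor the species of the USP28 sequence is stated in the labels. Replicates are numbered in the labels with no statement that they came from separate cultures.

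USP28 is a deubiquitinase, an enzyme that takes ubiquitin off other proteins and so can spare them from the proteasome. It is known for acting on proteins that the ubiquitin ligase SCF-Fbw7 marks for destruction, among them the growth regulators Myc, Jun, cyclin E and Notch. These proteins are controlled after translation, so a transcript count reads USP28 only through what such proteins do to other genes. Libraries were selected for poly(A) tails, which most messenger RNAs carry. Replication-dependent histone mRNAs end in a stem-loop in place of a tail, and ribosomal, spliceosomal and other structural RNAs have no tail or only a transient one, so these are described apart from polyadenylated genes.

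The authors' deposited table for the Ras set holds comparisons and no values for single libraries. Each level below is therefore a group level in RPM (reads of a gene scaled to a depth of 1000000), rebuilt over 2 libraries. No spread between replicates can be given for a gene. Folds are log2 of Ras +/+ USP28 over Ras +/+, and each standard error (SE) is the one implied by the read counts and a single dispersion fitted to the deposited edgeR p-values. A gene that varied between cultures more than the typical gene has an SE and a p that are too small. The rebuilt depth was 11.4 M reads (M, 1000000) for Ras +/+ and 13.4 M for Ras +/+ USP28, so that 1 read equals 0.0880 and 0.0745 RPM. The table lists 33440 genes, of which 15444 had a mean level of at least 1 RPM and were tested. A gene was called when its p, adjusted by Benjamini and Hochberg's method over those genes, was under 0.05.

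Usp28 itself (chromosome 9, 48985375 to 49042517, plus strand, GRCm38) stood at 26.5 RPM in Ras +/+ and 26.4 RPM in Ras +/+ USP28. The log2 fold was -0.00 with an implied SE of 0.22, and the deposited p was 1. Its level was 18.6 RPM in Ras +/- and 14.8 RPM in Ras -/-. The reads assigned to the mouse gene thus did not differ between the vector groups, with a 95% interval from -0.42 to 0.42, and overexpression was not visible in this table. Reads from a vector with another species' coding sequence or without the mouse untranslated regions need not be assigned to the mouse gene, which was not tested.

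Few genes differed between the vectors. Of 15444 tested genes, 168 were called (1.09%), with 14 higher (0.0907%) and 154 lower (0.997%) in Ras +/+ USP28. The median log2 fold over all tested genes was 0.01, and 699 genes had an unadjusted p under 0.05. The lower calls were unevenly spread over classes of RNA. Among 236 structural RNA and histone genes, 51 were lower and 0 higher (21.6% called). Among 15195 genes classed as polyadenylated, 117 were called (0.770%), 14 higher and 103 lower. These 103 hold 47 genes at stepwise loci, a name used here for genes at least 1.5 times higher in Ras +/+ than in Ras +/- and at least 1.2 times higher in Ras +/- than in both other Ras groups. They also hold 5 genes whose span overlaps a structural RNA or histone gene. Both sets were separated after their values were seen. Without them, 65 of 15038 polyadenylated genes were called (0.432%), 14 higher and 51 lower. Messenger RNAs encoded by the mitochondrial genome gave 0 calls among 13 genes, with log2 folds from 0.05 to 0.37.

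**Figure D1:**
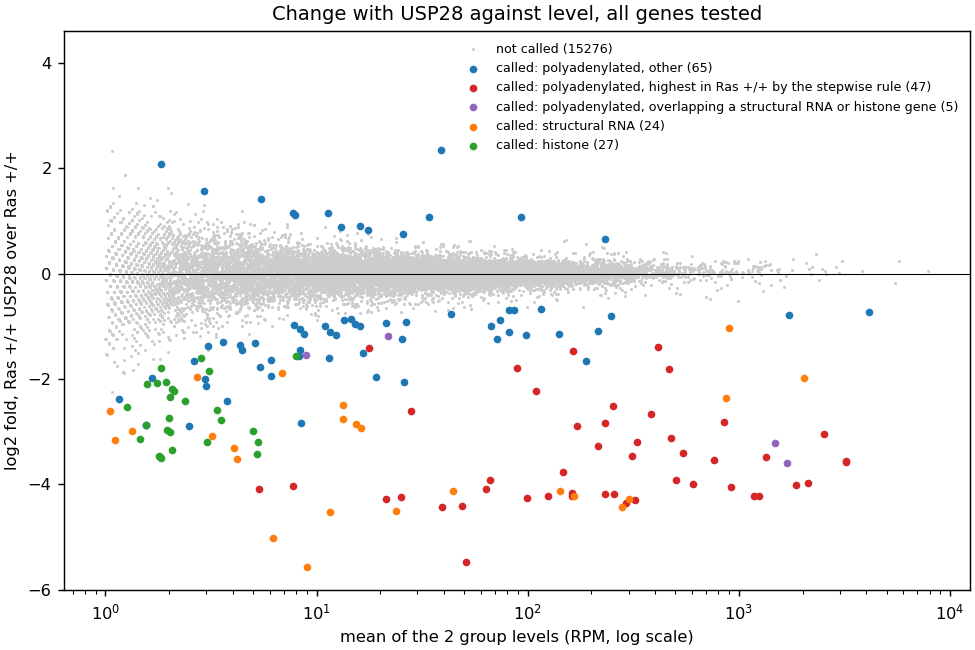
Each point is a tested gene, with the mean of both group levels (RPM, log scale) on the x axis and the log2 fold of Ras +/+ USP28 over Ras +/+ on the y axis; colours give the class of the 168 called genes. The 14 higher genes are all ordinary polyadenylated genes, while called structural RNA and histone genes and the stepwise loci lie below 0.

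Of the 14 genes that rose with USP28, the one with the largest fold was Angptl7, which encodes a secreted angiopoietin-like protein. It rose from 12.8 RPM (145 reads) to 64.7 RPM (869 reads), a log2 fold of 2.34 (SE 0.22, adjusted p = 3.06e-23). This was a 5.06-fold rise. Its level was 0.529 RPM in Ras +/- and 1.79 RPM in Ras -/-, both below the Ras +/+ level. Thbs2, the matrix glycoprotein thrombospondin 2, rose from 21.997 to 46.51 RPM (log2 fold 1.08, SE 0.21, adjusted p = 4.34e-05), against 0.151 and 0.430 RPM in Ras +/- and Ras -/-. For both genes the USP28 group was thus the highest of the 4 Ras groups.

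Of the remaining rises above 5 RPM in the higher group, Arrdc4, an arrestin-domain protein, went from 3.00 to 7.97 RPM (log2 fold 1.41). The receptor gene Gpr149 went from 7.05 to 15.6 RPM (1.14), and Tmem158, a membrane protein gene known as a Ras-induced transcript, from 4.82 to 10.7 RPM (1.14). Hs3st1, a heparan sulfate sulfotransferase, rose from 5.01 to 10.8 RPM (1.11). These 4 genes had adjusted p-values between 0.00142 and 0.0191. Npnt, a basement membrane protein that binds integrins, rose from 11.1 to 20.9 RPM (log2 fold 0.91), Klhl30 from 9.19 to 16.9 RPM (0.88) and the tetraspanin Tspan7 from 12.7 to 22.5 RPM (0.83). The pseudogene 9130208D14Rik rose from 19.003 to 32.17 RPM (0.76). Penk, which encodes the enkephalin precursor, was the most abundant gene that rose, from 180.3 to 285 RPM (log2 fold 0.66, SE 0.19, adjusted p = 0.0391). Its level was 47.4 RPM in Ras -/- and 0.151 RPM in Ras +/-. Below 5 RPM, the protocadherin gene Pcdhb18 rose from 1.49 to 4.40 RPM (1.56) and the interferon-induced gene Ifit3b from 0.701 RPM (8 reads) to 2.98 RPM (40 reads), a log2 fold of 2.09 with an SE of 0.58. Pcdhb18, Klhl30, Tspan7, 9130208D14Rik and Penk were not called with the authors' own adjusted p, which runs over all listed genes.

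Mtor, the kinase at the centre of the growth pathway of that name and a protein that Fbw7 binds, was called higher at 59.9 against 125 RPM (log2 fold 1.07, SE 0.19, adjusted p = 6.73e-06). The annotated span of Mtor (chromosome 4, 148448611 to 148557683, plus strand, GRCm38) contains Angptl7 (148495183 to 148500460, minus strand) between its exons. Subtracting the Angptl7 level from that of Mtor leaves 47.1 RPM in Ras +/+ and 60.7 RPM in Ras +/+ USP28, a log2 fold of 0.37 with a 95% interval from -0.03 to 0.76. The remainder was 48.1 RPM in Ras +/- and 64.1 RPM in Ras -/-. Pairs were taken in which a protein-coding gene of at least 5 RPM lies inside the span of another and off its exons. In 129 of 146 such pairs (88.4%), the outer gene had at least the level of the inner gene in Ras +/+. No share for pairs that are not nested is given here, so this count has no background to be read against. How the authors assigned reads to genes is not given in the sources used here, and whether the Mtor level holds Angptl7 reads was not tested. The Mtor level rose by 65.5 RPM and the Angptl7 level by 51.9 RPM.

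**Figure D2:**
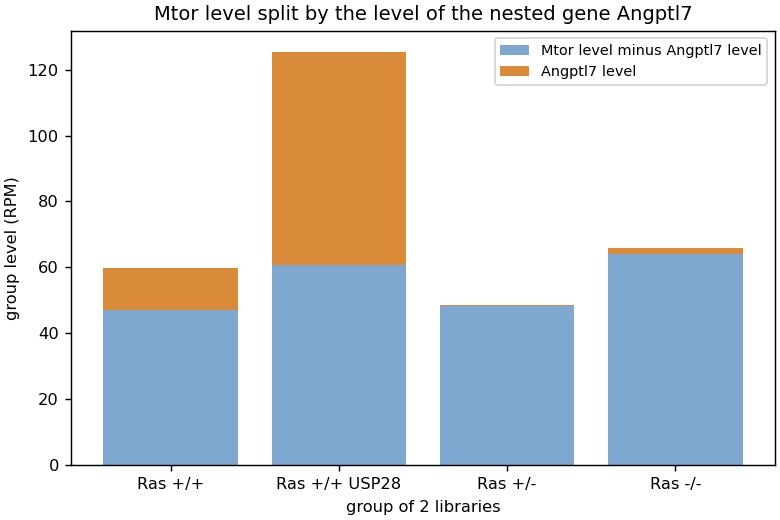
Stacked bars give the Mtor level in RPM in the 4 Ras groups of 2 libraries each. Each bar is split into the level of the nested gene Angptl7 and the remainder. Whether the Mtor level holds Angptl7 reads was not tested. There are no error bars because no single-library values were used. The Angptl7 part is 64.7 RPM in Ras +/+ USP28 and 0.529 to 12.8 RPM in the other groups, while the remainder lies between 47.1 and 64.1 RPM in all 4.

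Matrix genes gave more calls than any of the other 23 pathway lists. Of 21 tested members of a list of fibroblast matrix genes, 4 fell and 1 rose (Thbs2), against 0.997% of all tested genes lower. The list's median log2 fold was -0.31, against 0.01 over all genes tested, and 4 of its 21 members had a positive fold. All 3 listed chains of collagen VI, which forms beaded filaments around cells, were among those that fell. Col6a3 fell from 41.9 to 10.1 RPM (log2 fold -2.06, SE 0.23, adjusted p = 5.79e-17), and stood at 0.831 RPM in Ras +/- and 438 RPM in Ras -/-. Col6a2 fell from 100.5 to 42.5 RPM (-1.24, SE 0.20, adjusted p = 6.77e-08), and its neighbour Col6a1 from 142 to 89.0 RPM (-0.67, SE 0.19, adjusted p = 0.0365). The chains therefore differed in size of change, and their order in the other groups differed as well: Col6a1 stood at 625 RPM in Ras +/- and 279 RPM in Ras -/-, and Col6a2 at 424 and 127 RPM. Col6a1 was not called with the authors' own adjusted p (0.0791) or when levels were rescaled to polyadenylated reads (adjusted p = 0.1197).

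Col1a1, the alpha 1 chain of collagen I, was the most abundant gene that fell outside the loci set apart, from 5149.8 to 3099 RPM (log2 fold -0.73, SE 0.18, adjusted p = 0.00656). It lost its call with a doubled dispersion (adjusted p = 0.436). Its partner chain Col1a2 stood at 1789 and 1495 RPM (-0.26, adjusted p = 1), and Col3a1 at 292 and 225 RPM (-0.37, adjusted p = 1). Fn1, fibronectin, had 2593 and 2594 RPM. Called genes of matrix proteins also lay outside that list, in both directions, and those given here were chosen after their values were seen. Npnt rose, as described above. Fmod, fibromodulin, a proteoglycan that binds collagen fibrils, fell from 6.37 to 1.19 RPM (-2.42) and Smoc2, a calcium-binding matrix protein, from 30.3 to 7.82 RPM (-1.95, adjusted p = 1.11e-13). Ccn5, a matricellular protein, fell from 316 to 182 RPM (-0.80).

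Among 16 tested matrix proteases and inhibitors, 2 fell and 0 rose, against 0.997% of all tested genes lower, with a list median of -0.02. Adamts2, the enzyme that trims procollagen, fell from 12.3 to 4.47 RPM (log2 fold -1.46, adjusted p = 5.69e-05). Timp3, an inhibitor of metalloproteases, fell from 100.3 to 62.5 RPM (-0.68, adjusted p = 0.0414) and stood at 2386 RPM in Ras +/- and 3891 RPM in Ras -/-. Further protease genes outside the list were called, Adam19 at 7.28 against 2.90 RPM (-1.33) and Pappa at 5.12 against 2.08 RPM (-1.30). Pappa lay nearest the threshold of all called genes, with an adjusted p of 0.0487, and S1pr3 lay just outside it at 45.0 against 27.4 RPM (adjusted p = 0.0534).

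Further falls above 5 RPM outside the stepwise loci were in genes of unlike roles, and those named here were chosen after their values were seen. The gene with the largest fall of this class above 5 RPM is listed as a predicted gene without a symbol (14.8 and 2.09 RPM, log2 fold -2.83). Podxl, a membrane sialomucin, fell from 9.68 to 2.53 RPM (log2 fold -1.93), and stood at 156 RPM in Ras +/- and 0.788 RPM in Ras -/-. Mob3b fell from 8.34 to 2.46 RPM (-1.76), the transporter gene Slco3a1 from 9.25 to 2.98 RPM (-1.64) and Card10, an adaptor of NF-kappaB signalling, from 17.2 to 5.66 RPM (-1.60). Ank2, an ankyrin that anchors membrane proteins, fell from 12.3 to 4.17 RPM (-1.56), Tpd52 from 24.6 to 8.64 RPM (-1.51) and P2ry10b from 6.53 to 2.39 RPM (-1.45). Cntnap5b fell from 287 to 90.8 RPM (-1.66), with 212 RPM in Ras +/- and 78.3 RPM in Ras -/-. Cdsn, corneodesmosin, fell from 291 to 137 RPM (-1.09). Mob3b, P2ry10b, Cntnap5b and Cdsn were highest in Ras +/+ among the 4 Ras groups but did not meet the stepwise rule. Adjusted p-values of the 9 genes from Podxl to Cdsn ran from 9.6e-16 to 0.00755. Below 5 RPM, the convertase gene Pcsk6 fell from 4.39 to 0.596 RPM (-2.88) and Plekha2 from 2.74 to 0.372 RPM (-2.88), the latter on 5 reads in the USP28 group.

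Of 6 tested imprinted genes, 2 fell and 0 rose, against 0.997% of all tested genes lower and with 154 of all 168 calls being falls. Grb10, an adaptor that dampens insulin and growth factor receptors, fell from 194 to 87.4 RPM (log2 fold -1.15, SE 0.19, adjusted p = 2.87e-07), with 70.1 RPM in Ras +/- and 554 RPM in Ras -/-. Sgce, epsilon-sarcoglycan, fell from 4.75 to 1.19 RPM (-1.99, adjusted p = 0.000421). Ppp1r9a, 155.7 kb from Sgce on chromosome 6 of GRCm38, fell from 2.65 to 0.670 RPM (-1.98, adjusted p = 0.0445). Peg10, which lies between them, had 0.440 RPM (5 reads) and 0.0745 RPM (1 read) and was below the level filter, against 61.2 RPM in Ras -/-. On chromosome 17, Smoc2 and Thbs2 lie 260.7 kb apart and were called in opposite directions.

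Single members of other lists fell. With 1.09% of all tested genes called, 1 call in a list of 14 to 27 genes is no result about the list. Trib3, a pseudokinase induced by ATF4, fell from 54.3 to 32.1 RPM (log2 fold -0.76, adjusted p = 0.01999), the 1 call among 22 genes of the unfolded protein and integrated stress responses (median -0.20). Cnn1, a smooth muscle calponin, fell from 1.94 RPM (22 reads) to 0.372 RPM (5 reads), a log2 fold of -2.38 with an SE of 0.71 (adjusted p = 0.0352), and it was not called under any alternative setting in which it was tested. It was the 1 call among 14 contractile genes, whose abundant members Acta2 (2769 and 3016 RPM), Tagln (1129 and 1256 RPM) and Tpm1 (2130.0 and 2314 RPM) were not called. Nes, the intermediate filament nestin, fell from 35.5 to 15.0 RPM (-1.24, adjusted p = 3.34e-06). Ptx3, a secreted pattern recognition protein, fell from 88.9 to 44.6 RPM (-0.99). Its host gene Veph1 had 95.3 and 51.9 RPM, and 6.48 and 7.29 RPM after the Ptx3 level was subtracted. Hmox1, heme oxygenase 1, fell from 106 to 65.9 RPM (-0.69) and the superoxide dismutase gene Sod3 from 112 to 52.0 RPM (-1.10). Timp3, Pappa, Ppp1r9a, Cnn1 and Hmox1 were not called by the adjusted p in the authors' deposited table, which ran from 0.0766 for Cnn1 and Hmox1 to 0.106 for Pappa.

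Fgfr2 was called lower at 2188 against 1263 RPM (log2 fold -0.79, adjusted p = 0.00174), the 1 call among 18 growth factor genes (1.09% of all tested genes were called). It stood at 1326 RPM in Ras +/- and 1062 RPM in Ras -/-, so that Ras +/+ had the highest level of the Ras groups. Its annotated span covers 2.96 megabases and contains 38 other genes of the table. Those genes summed to 1057 RPM in Ras +/+ and 1053 RPM in Ras +/+ USP28, which leaves 1131 and 210 RPM of the Fgfr2 level. This value therefore cannot be read as that of the receptor's transcript alone.

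**Figure D3:**
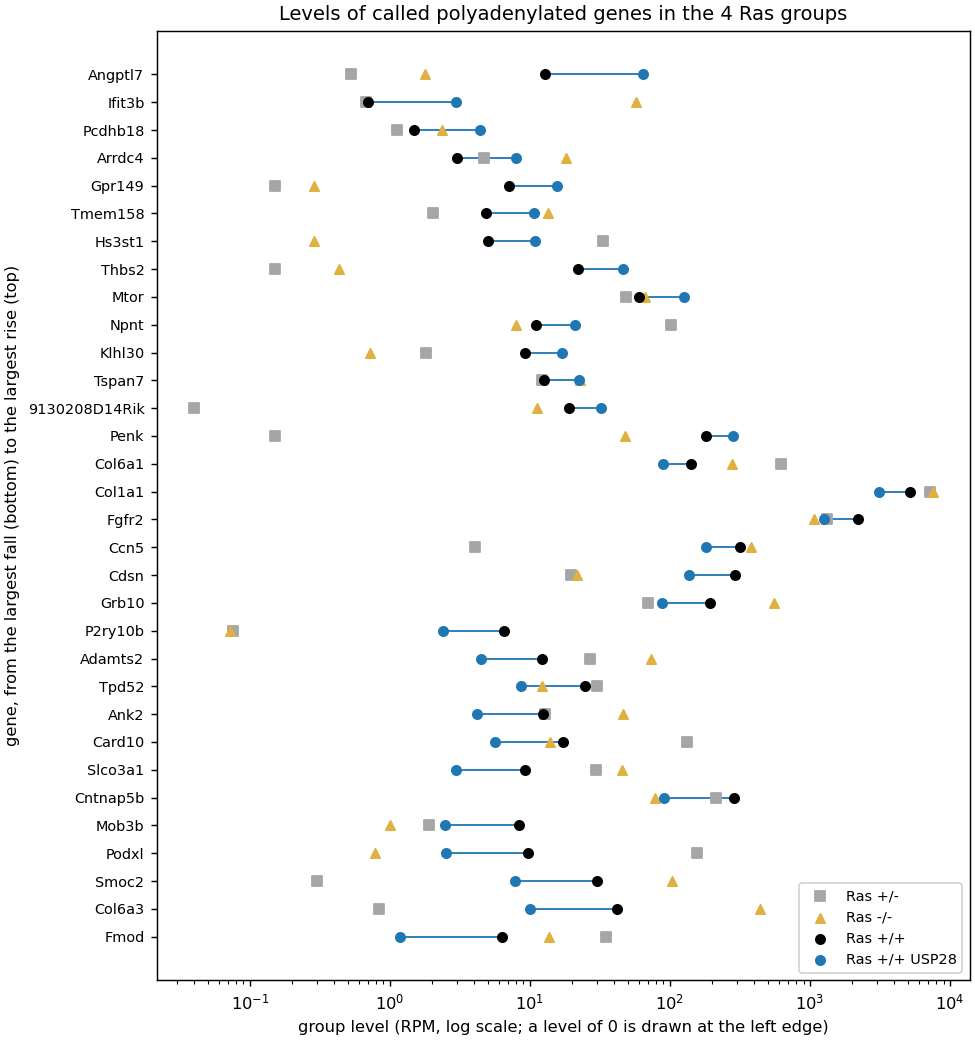
Dots give the group level in RPM (log scale) of 32 called polyadenylated genes in Ras +/+ (black), Ras +/+ USP28 (blue), Ras +/- (grey squares) and Ras -/- (yellow triangles), each over 2 libraries, and a line joins the compared groups. Angptl7 and Thbs2 are among the genes that are highest with USP28. For genes such as Col6a3 the distance to the other genotypes (0.831 to 438 RPM) exceeds that between the vectors (41.9 and 10.1 RPM).

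The 3 comparisons of the Ras table share the Ras +/+ libraries. Against them, 34.1% of tested genes were called in Ras +/- and 27.6% in Ras -/-, by the same rule as the 1.09% with USP28.

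Transcripts of the system on which USP28 acts did not pass the test. Of 9 tested genes for USP28, its relative USP25, the Fbw7 ligase and partners, 0 were called. Fbxw7, the substrate-binding subunit, had 27.1 and 30.5 RPM (log2 fold 0.17, 95% interval -0.25 to 0.59), and Usp25 59.3 and 65.3 RPM (0.14, -0.25 to 0.52). Atm had the smallest p of this list (30.4 and 26.7 RPM, adjusted p = 1). Myc had 161 and 170 RPM (0.08, -0.29 to 0.45), Jun 256 and 273 RPM (0.09, -0.27 to 0.46), Ccne1 45.9 and 51.8 RPM (0.17, -0.22 to 0.57) and Notch1 31.3 and 24.1 RPM (-0.38, -0.80 to 0.04). Hras had 93.5 and 114 RPM (0.28, -0.09 to 0.66). Each of these 7 intervals holds 0. Mtor was the 1 call among 27 transcripts of Fbw7 substrates, beside 1.09% of all tested genes called. With the Angptl7 level subtracted, the Mtor interval holds 0 as well (-0.03 to 0.76). Whether Angptl7 reads were counted for Mtor was not tested.

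Lists of genes driven by these proteins gave 0 calls as well, which in lists of 12 to 48 genes is near the 1.09% called over all tested genes. Among 48 Myc-driven growth genes the median log2 fold was 0.04 and the values ran from -0.20 to 0.27, with Phb2 at the smallest p (193 and 233 RPM, adjusted p = 1). Among 32 genes of E2F and S phase the median was -0.01 (Ccne2 at 54.03 and 41.3 RPM, adjusted p = 1), and among 24 genes of G2 and mitosis 0.08 (Cenpa at 112 and 130.3 RPM, adjusted p = 1). The 22 immediate-early and AP-1 genes had a median of -0.02 (Atf3 at 6.95 and 3.65 RPM, adjusted p = 0.214), and the 12 Notch pathway genes one of -0.08 (Hey2 at 3.83 and 2.09 RPM, adjusted p = 0.874). The 23 genes of Ras-MAPK output had a median of 0.07, with Mmp3 at 15.7 and 24.7 RPM (adjusted p = 0.214). The 22 CDK inhibitors and p53 targets had a median of -0.10, with Cdkn2b at 25.3 and 38.3 RPM (adjusted p = 0.316).

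Interferon response genes had the highest median of the 24 pathway lists, 0.37 over 21 tested genes, of which 20 had a positive fold and 0 were called. The interferon-induced gene Ifit3b, called higher as described above, is not on this list. Ifit1 had the smallest p, at 4.94 and 9.54 RPM (log2 fold 0.95, SE 0.29, adjusted p = 0.0955). Isg15 stood at 2.47 and 3.65 RPM. The Ifit1 levels lay between those of Ras +/- (0.682 RPM) and Ras -/- (108 RPM). Glycolysis and hypoxia genes followed with a median of 0.21 over 25 genes (Ndrg1 at 18.6 and 11.9 RPM, adjusted p = 0.383) and sterol and fatty acid synthesis with 0.12 over 26. The TGF-beta, Wnt, inflammatory, heat shock and proteasome, respiratory chain and Hox lists gave 0 calls and medians between -0.03 and 0.10. Their members with the smallest p were Tgfb2 (12.9 and 7.45 RPM), Nkd2 (2.46 and 4.32 RPM), Il11 (2.81 and 1.64 RPM), Psmd4 (88.7 and 101 RPM), Ndufa1 (12.5 and 16.8 RPM) and Hoxd13 (136 and 167 RPM), at adjusted p-values from 0.191 to 1.

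**Figure D4:**
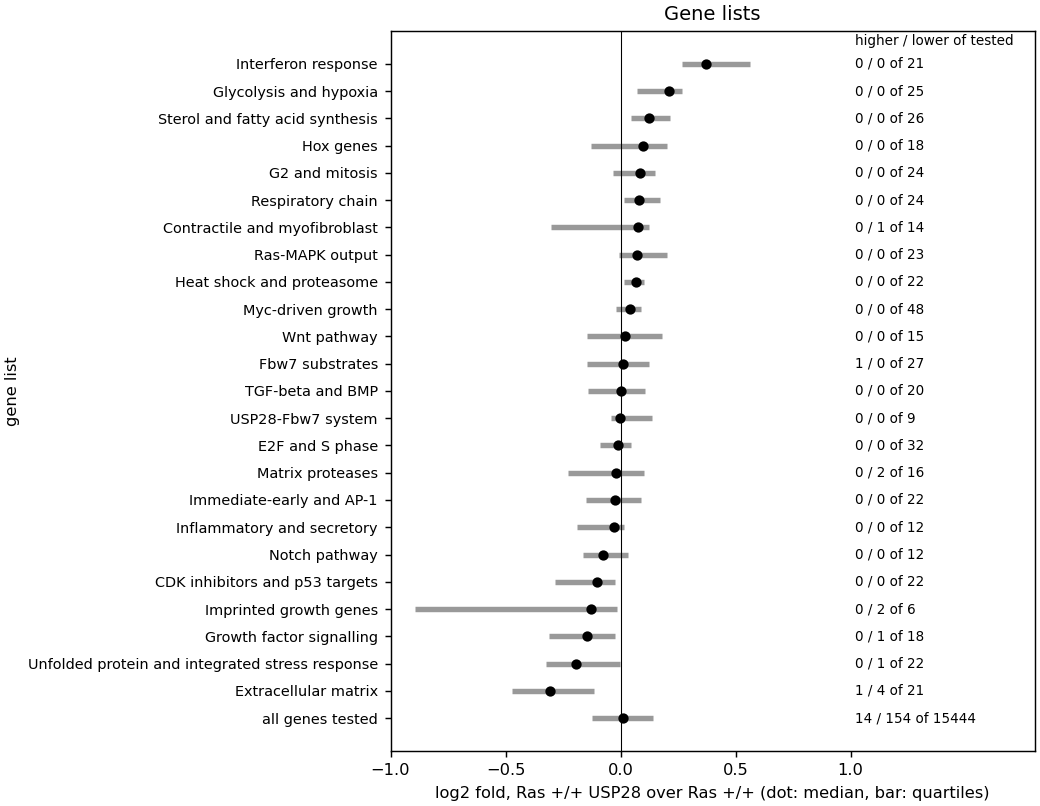
For each gene list the dot is the median log2 fold of Ras +/+ USP28 over Ras +/+ and the bar spans the quartiles over its tested genes; the numbers give members called higher and lower of those tested. Among these 24 pathway lists, matrix lies lowest (-0.31, 1 higher and 4 lower of 21) and interferon response highest (0.37, 0 called of 21).

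The labelled cell type was checked against markers. Fibroblast genes were abundant in both groups, with summed levels of 12744 and 10166 RPM over 9 markers, and 1 (Col1a1) of 8 tested was called. Thy1 was at 1 read and 0 reads. Markers of leukocytes (20.1 and 22.8 RPM over 9 genes), endothelium (16.7 and 18.5 RPM over 8) and adipocytes (1.32 and 1.42 RPM over 7) were low in both groups, and none was called. Mesothelial markers summed to 497 and 552 RPM over 6 genes, nearly all of it Msln (425 and 466 RPM) and Krt19 (71.5 and 85.4 RPM), with Wt1 at 1 read and 5 reads. Skeletal muscle markers summed to 445 and 461 RPM over 9 genes, nearly all of it Tnnc1 (388 and 383 RPM) and Acta1 (57.2 and 77.3 RPM), with Myod1 and Myog at 0 reads. Krt19 also made up most of the epithelial sum of 72.5 and 86.6 RPM over 7 genes, with Epcam at 1 read and 0 reads, and 10 cartilage markers summed to 17.1 and 15.7 RPM. None of these was called. Neural and glial markers summed to 95.5 and 63.8 RPM, with Nes the 1 call of 5 tested and Sox10 at 1 read and 0 reads. Xist stood at 336 and 323 RPM, against 25.5 RPM in Ras +/- and 0.215 RPM in Ras -/-, and the Y-linked gene Eif2s3y had 0 reads and 1 read, against 22.4 RPM in Ras -/-. By these genes the groups compared here resembled each other and not the Ras -/- cells. Ras +/- cells also differed from both compared groups in Xist.

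Promoters of the called genes were read from RefSeq (GRCm38.p6) for 8 of the 14 genes that rose and 33 of the 48 named genes that fell. Each promoter ran from 250 bases before the start site to 50 bases after it. A gene was counted if any of its promoters held the motif. The AP-1 motif was searched as TGANTCA, which reads the same on both strands. It was found in 1 of 8 and 5 of 33 of these genes, against 592 of 9656 tested genes of this class with a promoter (6.13%). The E-box searched as CACGTG was found in 1 of 8 and 5 of 33, against 1127 of 9656 (11.7%). The genes with the AP-1 letters were Ifit3b among those that rose and Adam19, Col6a1, Fgf13, P2ry10b and Rorb among those that fell. Those with the E-box letters were Arrdc4 among those that rose and Adam19, Atoh8, Fgfr2, Ppp1r9a and Rbm43 among those that fell. The bases before the start site of 2 of these genes are shown, 1 that fell and 1 that rose, with the motif in capitals. The build is GRCm38. The first is chr10:76726045-76726294 on the minus strand and the second chr7:68749239-68749488 on the minus strand.
Col6a1: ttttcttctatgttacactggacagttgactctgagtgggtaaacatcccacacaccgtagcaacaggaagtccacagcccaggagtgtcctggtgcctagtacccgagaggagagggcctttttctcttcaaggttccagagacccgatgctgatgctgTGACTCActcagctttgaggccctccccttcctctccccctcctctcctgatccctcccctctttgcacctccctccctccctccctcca
Arrdc4: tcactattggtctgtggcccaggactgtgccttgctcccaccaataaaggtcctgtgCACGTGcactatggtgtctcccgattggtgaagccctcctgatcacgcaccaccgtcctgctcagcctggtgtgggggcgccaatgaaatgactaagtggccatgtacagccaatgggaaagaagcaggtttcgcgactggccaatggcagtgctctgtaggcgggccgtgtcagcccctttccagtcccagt

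Histone genes were lower with USP28 in 27 of 52 tested genes and higher in 0, against 0.997% of all tested genes lower. Their median log2 fold was -1.82, and their summed level was 223 RPM in Ras +/+ and 85.2 RPM in Ras +/+ USP28. The calls covered 4 of 4 genes of the linker histone H1, 6 of 11 of H2B, 9 of 10 of H3 and 8 of 12 of H4. Among 15 genes of H2A, 0 were called and 6 had an unadjusted p under 0.05, and their median was -0.53. Hist1h1e fell from 9.58 to 0.894 RPM (-3.42), Hist1h4d from 5.48 to 0.596 RPM (-3.20) and Hist1h3e from 3.38 RPM (38 reads) to 0.298 RPM (4 reads) (-3.50). The H2A gene Hist1h2ag had 4.44 and 4.55 RPM, and Hist1h2ah 4.24 and 4.10 RPM. Over all 52 histone genes, levels summed to 86.2 RPM in Ras +/- and 172 RPM in Ras -/-, both below Ras +/+. Levels of H1 genes summed to 36.5 RPM in Ras +/+, 6.93 with USP28, 9.33 in Ras +/- and 38.9 in Ras -/-. Hist1h1c made up 30.0 RPM of that Ras -/- sum, and the other H1 genes were each lower in Ras -/- than in Ras +/+. Genes of S phase, described above, gave 0 calls.

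The histone stem-loop, the hairpin that replaces the tail, was searched by name as its consensus of 16 bases in the GENCODE vM21 transcripts, on the transcribed strand. It was found in 32 of 47 tested histone genes with a transcript there and in 2 of 14852 other polyadenylated genes. By type it was found in 3 of 4 H1, 9 of 15 H2A, 5 of 10 H2B, 5 of 6 H3 and 10 of 12 H4 genes. The hairpins of 3 genes that fell and of Hist1h2ag, which was not called, are shown with the paired arms in capitals. Hist1h1e and Hist1h2ag carry the same 16 bases.
Hist1h1e: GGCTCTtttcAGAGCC
Hist1h3e: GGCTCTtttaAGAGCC
Hist1h4d: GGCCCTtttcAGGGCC
Hist1h2ag: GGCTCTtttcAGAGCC

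Structural RNA genes were lower in 24 of 184 tested and higher in 0, again against 0.997% lower over all genes. By type of RNA, all 10 genes annotated as miscellaneous RNA were lower, among them Rn7sk, the RNA that holds the elongation factor P-TEFb inactive (27.0 and 3.73 RPM), and Rn7s6 (28.6 and 3.73 RPM). Both ribozyme RNAs were lower. Rpph1, the RNA of RNase P, had 17.6 RPM (200 reads) and 0.373 RPM (5 reads), a log2 fold of -5.56 with an SE of 0.65, and Rmrp, that of RNase MRP, 12.002 and 0.373 RPM (-5.01). Of the genes annotated as rRNA outside the mitochondrial genome, n-R5-8s1 fell from 22.2 to 0.969 RPM (-4.52) and Gm24601 from 45.7 to 2.01 RPM (-4.50). By contrast, 0 of 72 small nucleolar RNA genes were called (4 with an unadjusted p under 0.05, median log2 fold -0.02). Levels of these 72 genes were low, with sums of only 163 RPM in Ras +/+ and 154 RPM in Ras +/+ USP28.

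Within the mitochondrial genome the ribosomal RNAs and the messenger RNAs went apart. mt-Rnr2 fell from 3249.7 to 819 RPM (log2 fold -1.99, SE 0.18) and mt-Rnr1 from 1449 to 284 RPM (-2.35, SE 0.19), while 13 of 13 mitochondrial mRNAs had a positive fold and 0 were called, 1 at an unadjusted p under 0.05. Mitochondrial tRNA genes gave 0 calls of 19. Of the nuclear long noncoding RNAs counted here as structural RNA, Malat1 fell from 1207 to 593 RPM (-1.02, SE 0.18), and Neat1 had 328 and 366 RPM (0.16, adjusted p = 1). Which of their transcript forms carried a tail was not tested. In Ras +/- and Ras -/- the 184 structural genes summed to 3519 and 2780 RPM, against 9412 RPM in Ras +/+ and 3397 RPM with USP28. The Ras +/+ libraries thus held the highest level of the 4 groups, and the share that poly(A) selection, library kit or culture had in this was not tested. The labels name 2 library kits without saying which library was made with which.

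**Figure D5:**
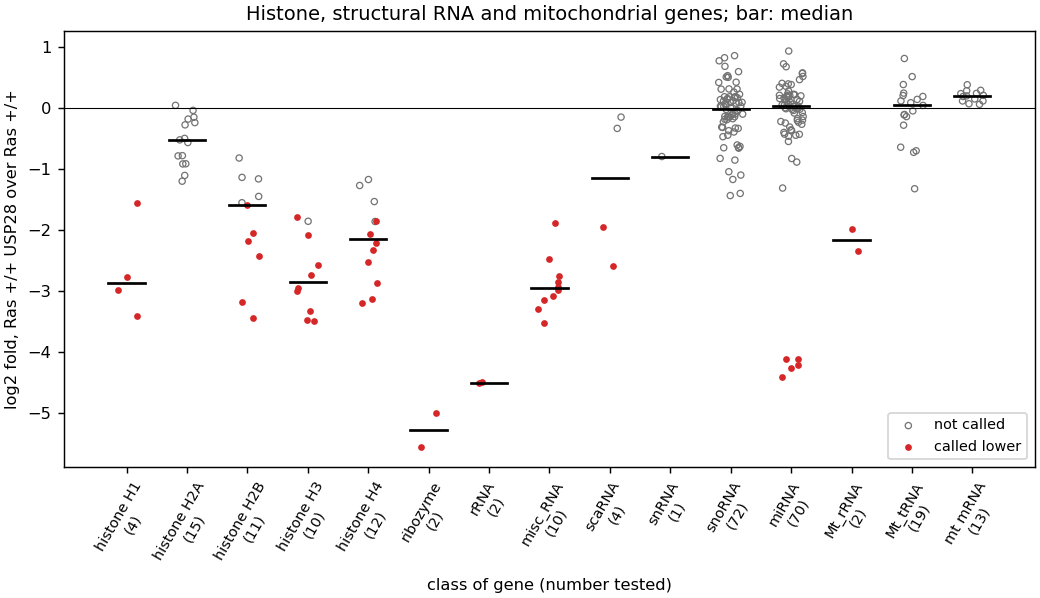
Each circle is a tested gene, grouped by histone type or RNA class with the number tested in brackets, and the y axis is the log2 fold of Ras +/+ USP28 over Ras +/+; red points were called lower and bars are medians. Small nucleolar RNA genes (0 called of 72) lie on both sides of 0, from -1.44 to 0.85, and H2A genes (0 of 15) from -1.21 to 0.04, while H1, H3, ribozyme, rRNA and mitochondrial rRNA genes lie below -1.5.

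Of 70 tested genes annotated as microRNA, 5 were lower and 0 higher, against 0.997% of all tested genes lower. Gm24270 had 572 and 29.5 RPM (log2 fold -4.28), Gm23935 535 and 24.98 RPM (-4.42), Gm24245 313 and 16.9 RPM (-4.21), Gm24187 268 and 15.4 RPM (-4.12) and Gm25911 84.1 and 4.85 RPM (-4.12). They lie on 5 different chromosomes and 0 of them are in the RefSeq microRNA table. Their transcripts in GENCODE vM21 (GRCm38) are nearly the same sequence, which is why they are shown. Gm23935, Gm24245 and Gm24270 are identical over 57 bases, and no other gene among 141767 annotated transcripts holds that sequence. Capitals mark bases that differ from it, and Gm25911 also lacks 1 base. Reads from such copies cannot be assigned to 1 gene, so these values are uncertain for each. Sequence outside annotated transcripts was not searched, and whether these reads came from other copies elsewhere was not tested.
Gm23935 (chr16:11144125-11144181, plus strand): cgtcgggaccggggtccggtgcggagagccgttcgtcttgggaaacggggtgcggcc
Gm24187 (chr13:9834469-9834525, minus strand): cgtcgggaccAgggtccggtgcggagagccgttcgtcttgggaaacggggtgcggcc
Gm24245 (chr4:139338304-139338360, plus strand): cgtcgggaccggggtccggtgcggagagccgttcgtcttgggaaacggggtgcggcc
Gm24270 (chr9:56223715-56223771, minus strand): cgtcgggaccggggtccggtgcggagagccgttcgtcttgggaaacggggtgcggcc
Gm25911 (chr1:167340369-167340424, minus strand): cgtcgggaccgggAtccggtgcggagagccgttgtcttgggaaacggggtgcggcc

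The stepwise loci were taken by a rule written after the values were seen and using this contrast. It held for 75 tested genes of any class, of which 69 were called lower (beside 0.997% of all genes), and 51 of the 75 are polyadenylated genes that overlap no structural RNA or histone gene. Summed over those 51 genes, levels were 48761 RPM in Ras +/+, 15420.0 RPM in Ras +/-, 4886 RPM in Ras -/- and 4519.98 RPM with USP28. Since the rule used these values, they are a description. The 12 largest falls named by the rule for named genes all came from this set, with log2 folds from -5.47 to -4.17.

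Cmss1 and Filip1l, which overlaps it, had 5924 and 5914 RPM in Ras +/+ against 506 and 497 RPM with USP28. Cdk8, a kinase of the Mediator complex, had 3969 and 254 RPM, with 1286 RPM in Ras +/- and 284 RPM in Ras -/-. Lars2, the mitochondrial leucyl-tRNA synthetase, had 3519 and 217 RPM, with 1197 and 275 RPM. Jarid2, a partner of Polycomb repressive complexes, had 2236 and 120.3 RPM, with 722 and 165 RPM. The stepwise rule itself placed Ras +/+ first and Ras +/- second. Ras -/- was above USP28 in Cdk8, Lars2 and Jarid2. Genes known from specialised tissues were in this set as well: the cytokine receptor gene Il31ra had 558 and 27.3 RPM, the neuronal channel partner Kcnip1 615 and 31.3 RPM, the serotonin receptor gene Htr1d 40.7 and 2.09 RPM, the retinal matrix gene Impg1 47.7 and 2.54 RPM, the dynein gene Dnah7b 236 and 12.6 RPM and the collagen gene Col6a6 440.2 and 24.4 RPM. The remaining named falls were Gm12896 (99.4 and 2.24 RPM), Gm12895 (93.6 and 4.40 RPM), Zfp185 (189 and 9.92 RPM), Zfp791 (306 and 16.5 RPM) and Gm15564 (2359.7 and 127 RPM). The stepwise rule also held for 22 structural RNA genes, of which 20 were called lower. Whether reads at the loci named here came from the mRNAs of these genes was not tested. Their levels therefore cannot be read as those of the named transcripts alone.

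Zc3h7a (3109 and 258 RPM) and Peak1 (2669 and 289 RPM), both among the 8 called genes of highest level, belong to the genes set apart for overlap. Their spans contain Gm23935 and Gm24270, the microRNA-annotated copies shown above, which have 535 and 572 RPM in Ras +/+. Zfp949, Gm20634 and 4930558J22Rik are the other 3, and the last has the same 2.73 and 0.373 RPM as the histone gene Hist1h4b that it overlaps. Levels at these loci, like the summed structural RNA level, were highest in Ras +/+, and the part of either in the falls was not tested.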

How the data were processed

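Poly(A) RNA of MEFs was read on an Illumina sequencer, per the labels' protocols. Per the submitters' processing notes, CASAVA, FastQC, Bowtie 0.12.8 and edgeR were used with build mm9. Read assignment and filters are not given in the sources used here. The authors deposited, per the file headers, a log2 concentration and a log2 ratio for each gene and comparison (+/+ divided by the other group), with a p-value before and after adjustment. The log2 ratio was turned to the other group over +/+. Group levels were rebuilt as 2 to the power of the log2 concentration plus or minus 1/2 of the log2 ratio. Their steps of 1 read gave the depth (96.9% to 100% of values under 20 reads within 0.1 of a whole number). The table of the immortalized cells was not used here.

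The deposited p-values were adjusted over genes of at least 1 RPM mean level. A single dispersion of 0.0161 (coefficient of variation 12.7%), fitted to the deposited p-values, gave the SEs; rebuilt and deposited z values correlated across genes at r = 0.995. Fitting and rebuilding were tested on simulated data. Gene names and positions come from GENCODE vM21 (GRCm38) by gene ID and match 97.7% of IDs. Scripts used Python 3.11.15, pandas 2.3.3 and SciPy 1.17.1.

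The members and gene lists were chosen with earlier results of these data known. Named genes were the 12 largest rises and falls among called polyadenylated genes of at least 5 RPM with a symbol, 9 genes of the USP28 and Ras systems, up to 4 called members of each list or else the one with the smallest p, the 6 structural RNA or histone genes of highest level and the 6 of largest fold, and the 8 called polyadenylated genes of highest level. Falls outside the stepwise loci and other genes were named after values were seen. Counting error is the only error that read counts cover. Alternatives were other level filters, the authors' adjusted p, a threshold of 0.01, 2 other scalings and a doubled dispersion.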

Additional observations from a re-analysis of the deposited data

How the results depend on the processing

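No paired analysis was possible because the table holds no values for single libraries, and leaving out a replicate could not be run for the same reason. Of the 168 genes called, the alternatives called 121 (level of at least 5 RPM) to 160 (log2 ratios centred on the median polyadenylated gene), and 121 to 158 of the calls of each alternative were among the 168. The count of higher genes fell from 14 to 9 with no level filter and with the authors' own adjusted p, to 6 at a threshold of 0.01 and to 5 with a doubled dispersion. With the doubled dispersion, 7 list members were called. Structural RNA and histone calls went from 51 to 20 with the 5 RPM filter, because fewer of these genes were tested. Without the stepwise loci and the genes overlapping structural RNA or histone genes, an alternative chosen after seeing the data, polyadenylated calls went from 117 to 65. The centring shift was 0.01 and the rescaling shift -0.06 on the log2 scale, and no named gene that was called changed direction. Rescaling called 20 genes higher and 138 lower. The SE depends on 1 dispersion for all genes, and at 2 libraries a group a gene's own variation could not be measured.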
